A study of Mus musculus with 12 samples.

Results

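Glycolysis and the response to low oxygen were followed through 39 genes in cultured synovial fibroblasts from mouse paws. The genes were chosen by name, as the rows of the deposited expression table whose Ensembl identifiers map to 39 given symbols, and all 39 were found among the 55413 genes of the table. They comprise 3 sugar transporters, 9 enzymes of upper glycolysis, 2 regulators of phosphofructokinase, 6 enzymes of lower glycolysis, 5 genes of lactate handling and the pyruvate switch, 4 subunits and oxygen sensors of the hypoxia-inducible factor (HIF), and 10 other hypoxia targets. All 39 had a mean of at least 3 on the scale described below in the libraries of each comparison, so each was tested.

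Messenger RNA was sequenced in 12 libraries, 3 in each of 4 groups, all from BALB/c mice whose paws had been injected with monosodium urate (MSU), the crystal of gout. Cells of the in vitro group came from primed paws, injected on day 0 and again on day 9, and received 1 µM I-BET151 in the dish for 24 hours before harvest. In the in vivo group, also from primed paws, the mice were given 20 mg/kg I-BET151 a day into the peritoneum, beginning the day before day 0. Primed vehicle cells came from paws injected on the same 2 days in mice that received peritoneal injections lacking the drug. Non-primed vehicle cells came from paws injected on day 9 only, also in vehicle mice, and these were right paws whereas primed paws were left paws. I-BET151 blocks the bromodomains of the BET proteins, which read acetylated histones and promote transcription. Cells released from 2 to 3 paws with collagenase were pooled and grown for 5 passages in a glucose-rich medium, with day 18 given as the day of RNA extraction. No source used here gives the oxygen level of the cultures. The labels do not say whether the libraries of a group came from separate animals, so p-values measure the spread between these libraries, which may be technical. They also do not say what the mice behind the in vitro cells had received, and they name no drug in the dish for the in vivo group.

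Glycolysis splits glucose into pyruvate, and cells that make much lactate reduce that pyruvate with lactate dehydrogenase and export it through monocarboxylate transporters. HIF is a pair of proteins whose oxygen-sensitive alpha subunit, Hif1a or Epas1, is hydroxylated by the prolyl hydroxylases of the Egln family when oxygen is plentiful and then destroyed. When oxygen is scarce the alpha subunit persists, binds DNA and raises glucose transporters, glycolytic enzymes, angiogenic factors and its own hydroxylase Egln3. The inflamed joint is known as an oxygen-poor tissue, and synovial fibroblasts of inflamed joints as strongly glycolytic cells.

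HIF binds the core letters ACGTG or GCGTG, so the sequence just before the start of 4 members is shown here. Egln3 differed in each comparison made with the primed vehicle libraries, Slc16a1 had the largest called rise in vitro, P4ha2 was high in all primed vehicle libraries, and Slc2a5 had the largest difference of all members. Each window holds the 250 bases before the start site, 5′ to 3′ on the strand of the gene, from RefSeq for GRCm38.p6. Capitals mark matches to ACGTG, to GCGTG or to their reverse complements CACGT and CACGC. Their positions are chr12:54203875-54204124 on the minus strand for Egln3 and chr11:54100674-54100923 on the plus strand for P4ha2. They are chr3:104638414-104638663 on the plus strand for Slc16a1 and chr4:150119094-150119343 on the plus strand for Slc2a5.
Egln3: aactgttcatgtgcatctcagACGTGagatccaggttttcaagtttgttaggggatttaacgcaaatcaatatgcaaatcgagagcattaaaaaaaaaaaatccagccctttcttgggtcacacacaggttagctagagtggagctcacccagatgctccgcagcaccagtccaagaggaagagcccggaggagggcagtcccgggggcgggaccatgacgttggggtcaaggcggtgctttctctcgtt
P4ha2: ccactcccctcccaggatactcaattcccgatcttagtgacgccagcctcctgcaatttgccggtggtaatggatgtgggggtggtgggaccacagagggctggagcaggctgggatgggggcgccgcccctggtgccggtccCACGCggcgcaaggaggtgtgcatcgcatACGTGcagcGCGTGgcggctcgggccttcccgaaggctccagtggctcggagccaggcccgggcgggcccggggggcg
Slc16a1: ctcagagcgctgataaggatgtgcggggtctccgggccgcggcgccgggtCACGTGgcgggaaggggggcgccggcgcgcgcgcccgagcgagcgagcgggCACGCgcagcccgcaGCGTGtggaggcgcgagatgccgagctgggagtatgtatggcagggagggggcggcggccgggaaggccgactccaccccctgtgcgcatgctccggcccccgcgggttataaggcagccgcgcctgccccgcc
Slc2a5: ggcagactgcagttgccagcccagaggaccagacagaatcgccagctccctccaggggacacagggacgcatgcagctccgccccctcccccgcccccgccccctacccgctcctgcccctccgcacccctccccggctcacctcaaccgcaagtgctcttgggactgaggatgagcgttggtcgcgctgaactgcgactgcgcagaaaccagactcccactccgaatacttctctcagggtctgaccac
The Egln3 window held 1 match, that of P4ha2 held 3, that of Slc16a1 held 4 and that of Slc2a5 held 0. In Slc16a1, 2 of the 4 matches are the same letters read on either strand, since the palindrome CACGTG contains ACGTG in both directions. Windows were found for 36 of the 39 members, with several start sites for some genes, and Slc2a3, Epas1 and Ndrg1 had no entry. Of the 52 member windows, 75% held ACGTG or GCGTG on either strand, against 38.6% of all 32851 windows of the table. ACGTG alone was in 44.2% of member windows and 16.6% of all windows, GCGTG in 51.9% and 28.2%, and CACGTG in 11.5% and 6.02%. Member windows were also richer in G and C, at 61% against 53.2% of bases, with 14.8 against 9.86 CG pairs a window. In 31 members at least 1 window held a core, and in Car12, Eno2, Gpi1, Slc2a5 and Tpi1 none did. These are matches of letters in a short window and not measured sites.

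Expression is given as the authors' regularized log (rlog), a log2 scale on which a difference of 1 is a doubling, and which pulls in the differences of weakly expressed genes. The scale is not adjusted for gene length, so values are compared between libraries and not between genes. Rise and fall are written of genes whose adjusted p in limma, over all genes tested in the comparison, was under 0.05.

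The libraries did not all match their fibroblast label, and this touches most of the comparisons. In the 3 non-primed libraries and in in vivo libraries 2 and 3, Tyrp1, a melanin synthesis enzyme of pigment cells, lay between 17.44 and 18.62, against 3.98 to 6.10 in the other 7 libraries. Over 15 melanocyte markers the mean rlog was 12.60 to 13.97 in those 5 libraries and 5.61 to 6.69 in the other 7. Over 10 fibroblast markers it was 6.35 to 11.14 in the 5 pigment-rich libraries and 14.92 to 15.59 in the other 7. Non-primed library 3 and in vivo libraries 2 and 3 were also nearly alike, with 38 of 39 members within 0.25 log2 units in each of their 3 pairs, against at most 29 members in any of the other 63 pairs. Their median difference over all genes was 0.09 to 0.11 log2 units, against 0.15 to 0.90 in the other pairs, although 369 genes or more lay over 1 unit apart. Every non-primed library was pigment-rich and no primed vehicle library was, so priming and this difference cannot be told apart. In such pooled RNA, fewer cells of a type and less RNA per cell cannot be told apart either.

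**Figure D1:**
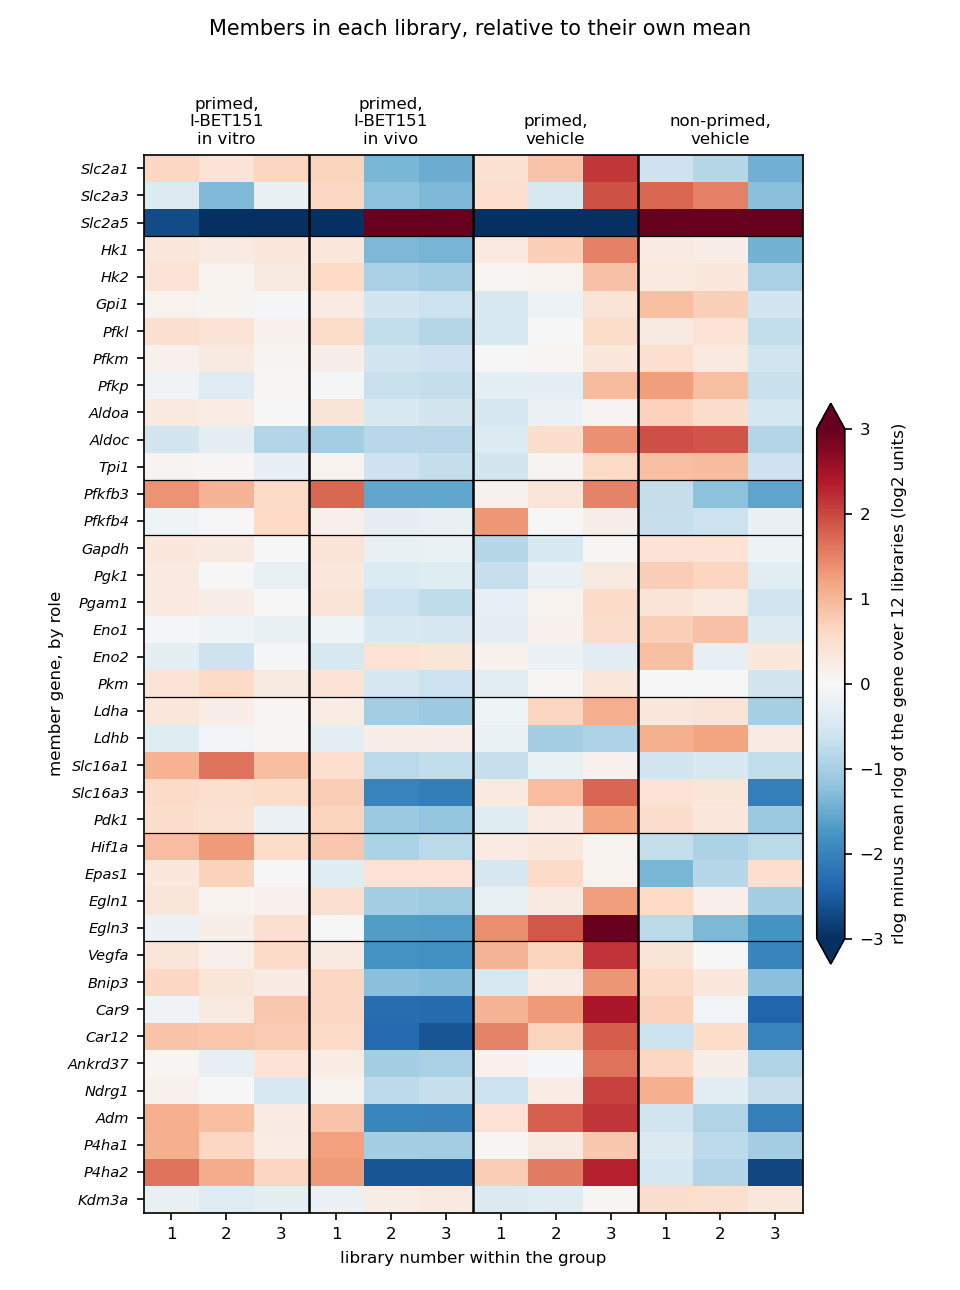
Each row is a member gene, ordered by role from sugar transport to hypoxia targets, and each column is a library, numbered within its group. Colour gives the rlog value minus the mean of that gene over the 12 libraries, in log2 units. Non-primed library 3 and in vivo libraries 2 and 3 share a nearly identical column of mostly blue cells. Slc2a5 has the strongest opposite colours in the pigment-rich and the other libraries. Other rows, such as Hif1a and P4ha2, also have opposite colours there, in the reverse direction.

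Primed vehicle cells were first set against non-primed vehicle cells, to see which genes differed after an earlier crystal injection. The alpha subunit Hif1a, its hydroxylase Egln3, the main glucose transporter Slc2a1 and the glycolytic regulator Pfkfb3 rose in primed cells, together with the vasoactive peptide gene Adm and the collagen prolyl hydroxylases P4ha1 and P4ha2. The fructose transporter Slc2a5, the lactate dehydrogenase subunit Ldhb and the histone demethylase Kdm3a fell. None of the 15 enzymes that turn glucose into pyruvate passed the test in either direction. In all, 10 of the 39 members passed, 7 higher and 3 lower, while 49.2% of the 16581 genes tested passed, 27.9% higher and 21.3% lower. The median difference of the members was 0.47 log2 units, against 0.06 over all genes tested, and the groups did not overlap for 12 members that were higher and 3 that were lower, together 15, against 33.9% and 28% of all genes, together 61.9%.

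Among the transporters, Slc2a1 had rlog values of 14.41, 14.80 and 16.08 in primed vehicle cells, against 13.33, 13.10 and 12.52 in non-primed cells. All 3 primed libraries lay above all non-primed ones, and the difference was 2.11 log2 units (SE 0.45, adjusted p = 0.00876), 4.33-fold on this scale. Slc2a5 stood at 3.92, 3.30 and 3.58 in primed vehicle cells and at 12.17, 11.94 and 11.75 in non-primed cells. It was low in every primed and high in every non-primed library, a difference of -8.36 log2 units (SE 0.29, adjusted p = 7.06e-05). Slc2a5 was likewise high, at 11.74 and 11.66, in in vivo libraries 2 and 3 and low, at 4.05, in in vivo library 1, as the pigment markers were. Slc2a3, the high-affinity glucose transporter, did not pass, with 9.63, 8.63 and 11.03 in primed vehicle cells and 10.84, 10.64 and 7.86 in non-primed cells. Its groups overlapped widely, and the difference was -0.01 (SE 0.94).

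The enzymes of upper and lower glycolysis overlapped between primed and non-primed cells, with the exception of Hk1, the ubiquitous hexokinase. Hk1 stood at 14.43, 14.85 and 15.66 in primed vehicle cells and at 14.39, 14.35 and 12.72 in non-primed cells. The groups were only just apart, and the difference of 1.16 (SE 0.53) had an adjusted p of 0.112. Gapdh, which makes the NADH of glycolysis, was at 16.49, 16.89 and 17.37 in primed vehicle cells and at 17.79, 17.79 and 17.20 in non-primed cells. Here 2 of the 3 non-primed libraries lay above all primed ones, and non-primed library 3 lay within the primed range. The same library was the lowest of its group for 35 of the 39 members, a count not made over all genes. Without non-primed library 3, 6 enzymes fell in primed cells, with differences of -0.88 for Gpi1, -0.80 for Aldoa, -1.41 for Aldoc, -0.88 for Tpi1, -0.87 for Gapdh and -0.91 for Pgk1, and with adjusted p between 0.0142 and 0.0497 in limma. That fit called 19 members, 10 higher and 9 lower, against 56.3% of all genes, 31.8% higher and 24.5% lower, and the median member difference was 0.04. The genes Pfkfb4, Epas1 and Car9 were the 3 further ones higher in it, by 1.16, 1.17 and 1.27. The count of enzymes that changed with priming therefore depends on 1 library, which is itself pigment-rich like the other non-primed libraries.

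**Figure D2:**
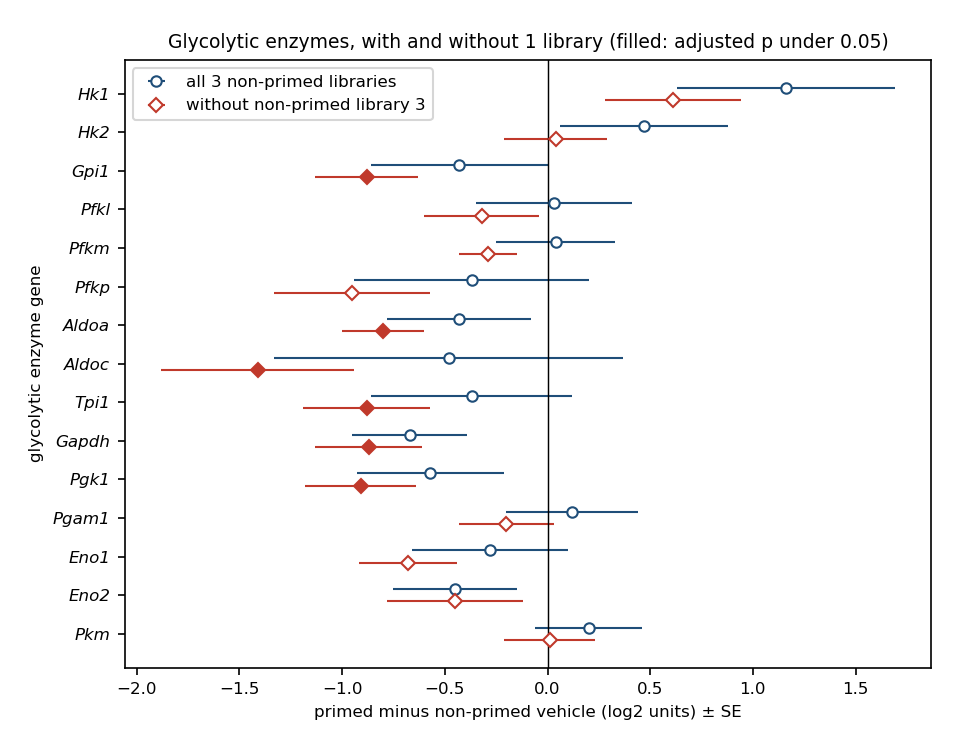
Points give the difference of each of the 15 glycolytic enzyme genes, primed minus non-primed vehicle, in log2 units with the standard error, for all 3 non-primed libraries (circles) and without non-primed library 3 (diamonds). Filled diamonds mark an adjusted p under 0.05, reached by 6 enzymes without that library and by none with it.

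Of the regulators of phosphofructokinase, Pfkfb3 makes the activator fructose 2,6-bisphosphate. It stood at 12.34, 12.57 and 13.68 in primed vehicle cells, against 11.49, 10.97 and 10.62 in non-primed cells, with no overlap, and rose by 1.84 (SE 0.39, adjusted p = 0.00914), a call that was lost in limma's fit of all 12 libraries, at an adjusted p of 0.0656 where 52.2% of genes passed. Pfkfb4, a related enzyme, had 10.91, 9.60 and 9.79 in primed vehicle cells and 8.91, 8.96 and 9.40 in non-primed cells. Its groups did not overlap either, but the difference of 1.01 (SE 0.38) did not pass, at an adjusted p of 0.0662.

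At the end of the pathway, Ldhb, the subunit typical of lactate-consuming tissue, had 11.67, 10.85 and 10.95 in primed vehicle cells and 12.93, 13.05 and 12.11 in non-primed cells. All primed libraries were below all non-primed ones, and Ldhb fell by 1.54 (SE 0.32, adjusted p = 0.00843). Its counterpart Ldha, the subunit favoured in lactate production, overlapped between the groups, at 17.18, 17.96 and 18.39 in primed vehicle cells and 17.64, 17.71 and 16.31 in non-primed cells. The lactate exporter Slc16a3, the lactate transporter Slc16a1 and the pyruvate dehydrogenase kinase Pdk1 differed by 1.40 (SE 0.73), 0.34 (SE 0.22) and 0.44 (SE 0.55), none of which passed.

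In the HIF system itself, Hif1a had 15.57, 15.64 and 15.42 in primed vehicle cells and 14.60, 14.37 and 14.52 in non-primed cells. The spread within each group was small beside the difference of 1.04 (SE 0.12, adjusted p = 0.00091). Egln3 had 12.56, 13.02 and 14.74 in primed vehicle cells and 10.34, 9.81 and 9.37 in non-primed cells. No library of the groups overlapped, and the rise of 3.60 (SE 0.58, adjusted p = 0.00302) was the largest among the members, 12.1-fold on this scale. Egln1, the main oxygen-sensing hydroxylase in most cells, stood at 13.63, 14.12 and 15.12 in primed vehicle cells and at 14.45, 14.01 and 12.83 in non-primed cells. Its groups overlapped, as did those of Epas1, with differences of 0.53 (SE 0.52) and 0.64 (SE 0.51).

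The other hypoxia targets were led by P4ha2, at 14.64, 15.43 and 16.24 in primed vehicle cells and 13.38, 13.02 and 11.17 in non-primed cells. Adm followed, at 13.08, 14.46 and 14.80 in primed vehicle cells and 12.06, 11.76 and 10.60 in non-primed cells. Neither gene overlapped between the groups, and P4ha2 rose by 2.91 (SE 0.66, adjusted p = 0.0111) and Adm by 2.64 (SE 0.55, adjusted p = 0.00821). P4ha1, the other collagen prolyl hydroxylase subunit, was at 14.92, 15.13 and 15.67 in primed vehicle cells, against 14.43, 14.06 and 13.82 in non-primed cells. It too was higher in every primed library, by 1.14 (SE 0.24, adjusted p = 0.00894), and lost its call in the fit of all 12 libraries, at an adjusted p of 0.0954. Kdm3a went the other way, at 12.59, 12.67 and 13.06 in primed vehicle cells and 13.56, 13.50 and 13.36 in non-primed cells, a difference of -0.70 (SE 0.15, adjusted p = 0.00986). The angiogenic factor Vegfa and the acid-handling carbonic anhydrases Car9 and Car12 did not overlap between the groups but did not pass, with differences of 1.83 (SE 0.69), 2.17 (SE 0.81) and 2.02 (SE 0.69) and adjusted p of 0.0659, 0.0656 and 0.0503. The mitophagy gene Bnip3, the hypoxia-induced Ankrd37 and the stress gene Ndrg1 overlapped, with differences of 0.48 to 0.60.

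Markers of several cell types moved with this comparison. Of 15 melanocyte markers 14 fell and 1 rose, and all 10 fibroblast markers rose. Of 9 macrophage markers tested 8 rose, with a mean over the list of 8.87 to 9.65 in primed vehicle cells and 3.81 to 6.45 in non-primed cells, and of 6 muscle markers tested 4 rose. Both neutrophil markers tested, S100a8 and Camp, rose, and 1 of 8 Schwann cell markers rose and 2 fell. Of the endothelial, keratinocyte and chondrocyte markers tested 2 of 4, 1 of 2 and 1 of 6 rose, while 0, 1 and 2 fell. The keratinocyte keratins Krt5, Krt14 and Krt1 and the endothelial Cldn5 were below 0 in every library. From the same lists, the keratin Krt10 rose by 4.93 (SE 0.49) and Cdh1 fell by 1.88 (SE 0.63). The endothelial Kdr and Tek rose by 3.54 (SE 0.38) and 3.81 (SE 0.43), and Pecam1 and Vwf did not pass. The part of these cells in the differences of the members was not tested.

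A view over all 12 libraries shows how the members lie along the pigment markers. In the 5 pigment-rich libraries Slc2a5, Ldhb and Kdm3a were above every one of the other 7 libraries, which is 7.69% of the members against 19.6% of all 16459 genes. Below them all were 10 members, Slc2a1, Hk1, Pfkfb3, Pfkfb4, Hif1a, Egln3, Car12, Adm, P4ha1 and P4ha2, or 25.6% of the members against 24.3% of all genes. For Hif1a the ranges were 14.37 to 14.60 in the pigment-rich libraries and 15.42 to 16.59 in the other 7, and for P4ha2 they were 11.17 to 13.38 and 14.54 to 16.24. All 10 members that passed the test of priming are among these 13. The split sets the same non-primed and primed vehicle libraries on opposite sides, so this overlap is partly built in and is no separate result. The same overlap was not counted over all genes.

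**Figure D3:**
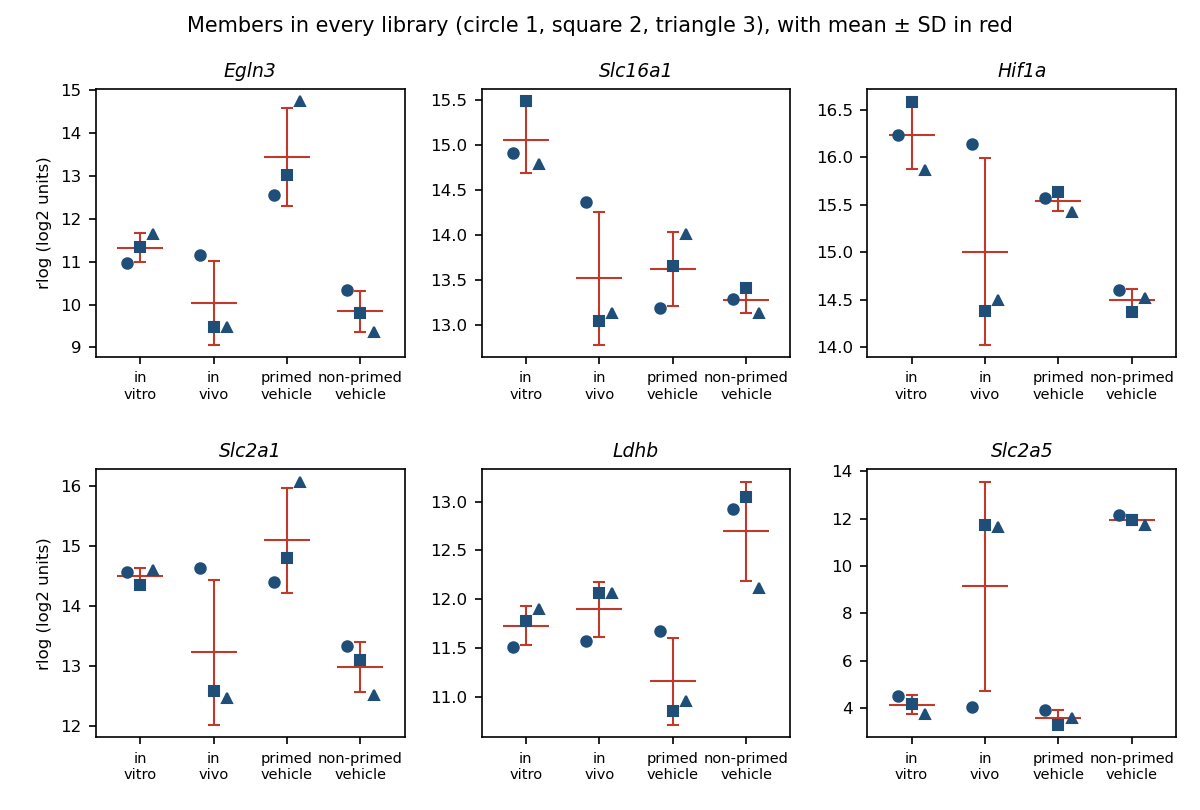
Each panel shows a member in every library, as rlog in log2 units, with circles, squares and triangles for libraries 1, 2 and 3 of a group and the mean ± SD in red. Egln3 is highest in primed vehicle cells, Slc16a1 is highest in the in vitro group, and in vivo library 1 stands away from in vivo libraries 2 and 3 in all 6 panels.

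Primed cells treated in vitro were then compared with primed vehicle cells, which asks what the drug does to primed cells in the dish. After 24 hours of I-BET151 in the dish, the lactate and pyruvate transporter Slc16a1 and the HIF subunit Hif1a rose, and the HIF-induced hydroxylase Egln3 fell. The other 36 members did not pass, among them all 15 glycolytic enzymes and all 10 other hypoxia targets. Set beside this count of 3 in 39, 31.1% of the 16793 genes tested passed, 13.3% higher and 17.9% lower. The median difference of the members was -0.09, against -0.04 over all genes. No pigment-rich library is on either side of this comparison, with mean melanocyte markers of 5.61 to 5.98 in treated and 6.21 to 6.69 in vehicle cells.

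Slc16a1 had 14.91, 15.49 and 14.79 in the in vitro libraries, against 13.19, 13.66 and 14.01 in the primed vehicle libraries. Every treated library lay above every vehicle library, and the difference of 1.44 (SE 0.25, adjusted p = 0.00769) is 2.72-fold on this scale. The related transporter Slc16a3 did not follow it, at 14.28, 14.20 and 14.27 in treated cells and 14.00, 14.65 and 15.45 in vehicle cells, a difference of -0.45 (SE 0.33). Slc16a1 minus Slc16a3 within a library was therefore 0.63, 1.28 and 0.52 in treated cells and -0.81, -0.99 and -1.44 in vehicle cells. Slc16a1 passed under every alternative setting and with each library left out, with differences of 1.23 to 1.64.

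Hif1a had 16.24, 16.59 and 15.87 in the in vitro libraries and 15.57, 15.64 and 15.42 in the primed vehicle libraries. The groups did not overlap, and the difference was 0.70 (SE 0.19, adjusted p = 0.0314). Egln3 had 10.98, 11.34 and 11.65 in treated cells and 12.56, 13.02 and 14.74 in vehicle cells. Again no library overlapped, and Egln3 fell by 2.11 (SE 0.53, adjusted p = 0.0243), so that it was 4.32-fold lower on this scale. Both calls are near the threshold. Of the alternatives, Hif1a missed it, at adjusted p of 0.0629 to 0.0918, without any 1 of the vehicle libraries or without in vitro library 1 or 2, and Egln3 missed it at 0.0859 and 0.0772 without in vitro library 1 or 2. In a fit of all 12 libraries, in which 6.46% of genes passed, 2.32% higher and 4.14% lower, Slc16a1 remained called with an adjusted p of 0.0383, while Hif1a had 0.303 and Egln3 had 0.0595.

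The balance of Egln3 against Egln1 within a library was -3.23, -2.61 and -2.32 in treated cells and -1.07, -1.10 and -0.38 in vehicle cells, since Egln1 itself differed by only -0.24 (SE 0.35). In non-primed cells the same balance was -4.11, -4.20 and -3.46. The in vitro libraries thus lay between the primed vehicle and the non-primed libraries in this balance and overlapped neither. They did overlap the in vivo libraries, at -3.18, -3.35 and -3.33. The non-primed libraries were all pigment-rich, and the part of this in their balance was not tested.

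Of the hypoxia targets, Car9 and Vegfa were lower in every treated library without passing. Car9 had 11.35, 11.74 and 12.26 in the in vitro libraries and 12.47, 12.73 and 13.92 in the vehicle libraries, a difference of -1.26 (SE 0.40) with an adjusted p of 0.0509. Vegfa had 13.92, 13.70 and 14.13 in treated cells and 14.57, 14.23 and 15.73 in vehicle cells, a difference of -0.93 (SE 0.37) with an adjusted p of 0.0962. Counting both directions, 5 of 39 members did not overlap between these groups, against 48.9% of all genes. P4ha1 and P4ha2, higher with priming, overlapped between treated and vehicle cells, with differences of 0.25 (SE 0.27) and -0.41 (SE 0.42). Adm had 13.75, 13.56 and 12.90 in treated cells and 13.08, 14.46 and 14.80 in vehicle cells, so that the groups overlapped.

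Among the enzymes, the differences ran from -1.09 (SE 0.42) for the aldolase Aldoc to 0.62 (SE 0.24) for Gapdh. Gapdh had 17.66, 17.61 and 17.35 in treated cells and 16.49, 16.89 and 17.37 in vehicle cells, so that only vehicle library 3 reached into the treated range, and the adjusted p was 0.0906. Pkm, the pyruvate kinase of dividing cells and muscle, differed by 0.41 (SE 0.23) and Aldoa by 0.38 (SE 0.19), with adjusted p of 0.219 and 0.175. The transporters Slc2a1, Slc2a3 and Slc2a5 differed by -0.59 (SE 0.39), -1.30 (SE 0.60) and 0.55 (SE 0.31), and the regulators Pfkfb3 and Pfkfb4 by 0.32 (SE 0.36) and -0.33 (SE 0.37). Ldha and Ldhb differed by -0.34 (SE 0.31) and 0.58 (SE 0.23), and Ldha minus Ldhb was 6.13, 5.72 and 5.47 in treated cells and 5.51, 7.11 and 7.44 in vehicle cells. None of these passed, and for each of these enzymes and transporters except Slc2a5 and Eno2 the SD was wider in vehicle than in treated cells.

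Markers of other cell types were counted here too. Of 10 fibroblast markers 1 rose and 1 fell, of 14 melanocyte markers 2 fell, of 9 macrophage markers 1 fell, and both neutrophil markers tested fell. Of 5 endothelial and 3 keratinocyte markers 2 and 1 fell, of 8 Schwann cell markers 1 rose and 1 fell, and no muscle or chondrocyte marker passed. The mean over the macrophage list was 8.06 to 9.34 in treated cells and 8.87 to 9.65 in vehicle cells. The part of these cells in the 3 calls was not tested.

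**Figure D4:**
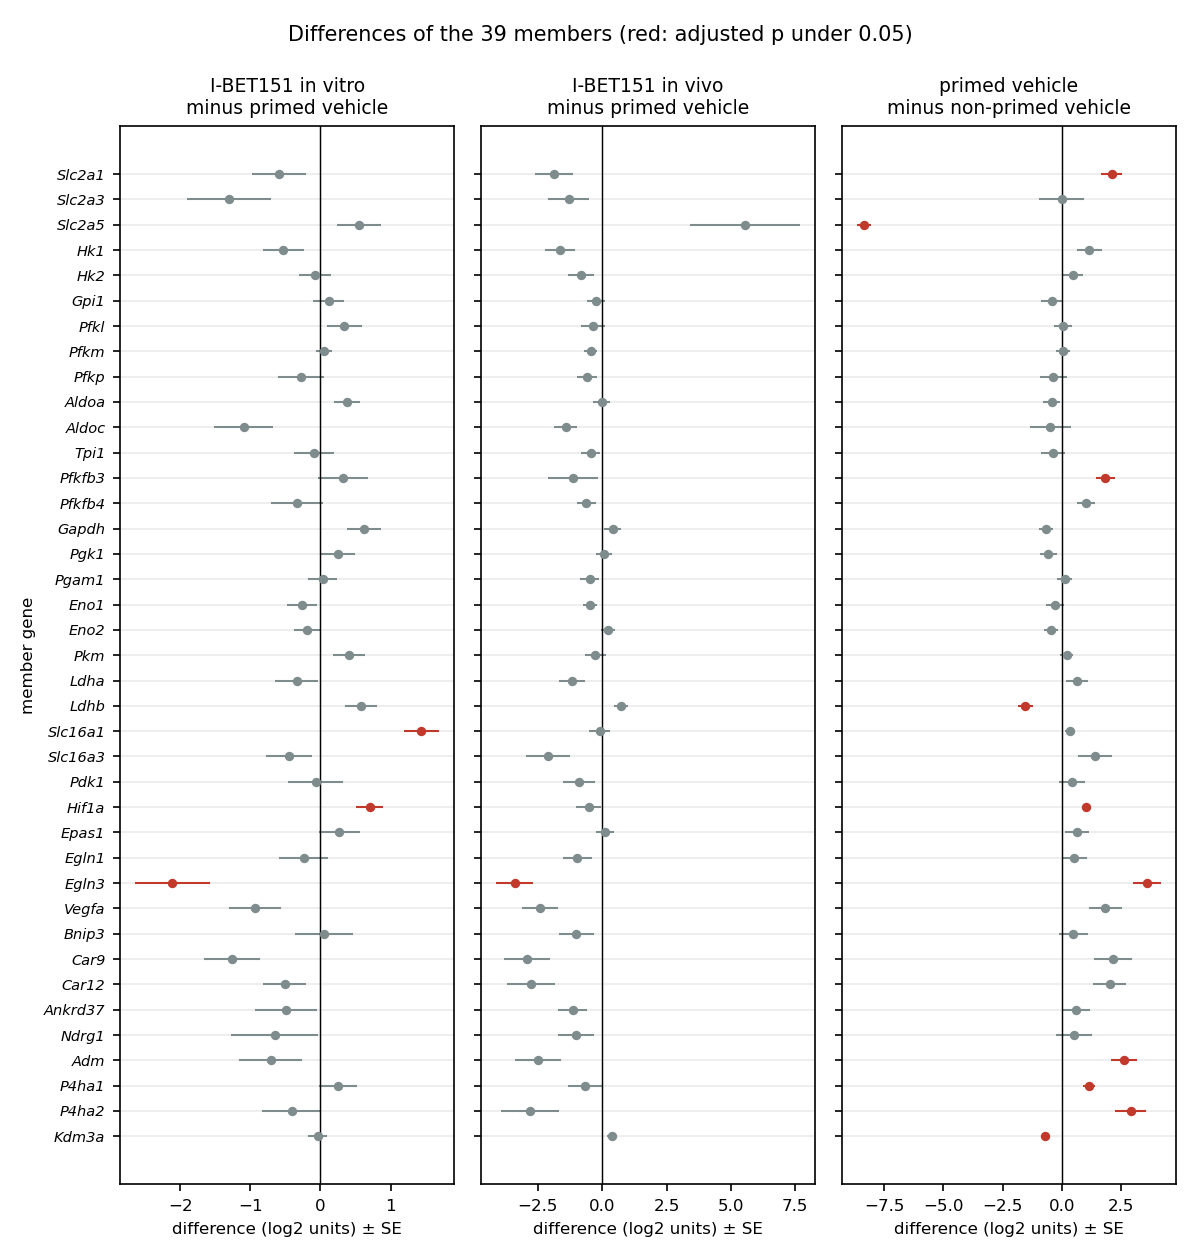
Points give the difference of each member in log2 units with its standard error, in 3 comparisons with their own horizontal scales, and red marks an adjusted p under 0.05. Egln3 is red in all 3 panels, to the left of 0 under either I-BET151 treatment and to the right of 0 with priming.

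Primed cells from mice treated in vivo were compared with the same primed vehicle cells, which asks whether treatment of the animal had left a mark on cultured cells. With all 3 in vivo libraries, Egln3 fell and no other member passed. This was 1 of 39 members, against 25.3% of the 16663 genes tested, 10.4% higher and 15% lower. The members had a median difference of -0.66, against -0.07 over all genes. These values join libraries of unlike kinds, since in vivo libraries 2 and 3 were pigment-rich and library 1 was not, so the members are given by library. Over all genes, in vivo library 1 lay nearer to the in vitro libraries than to the primed vehicle ones, and whether it carries the right label is not known. The primed vehicle libraries are the same as in the comparison of the in vitro group, so the results of the treatments are not independent.

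Egln3 had 11.16, 9.48 and 9.47 in the in vivo libraries, against 12.56, 13.02 and 14.74 in the primed vehicle libraries. All 3 treated libraries, the pigment-poor one included, lay below every vehicle library, and Egln3 fell by 3.40 (SE 0.72, adjusted p = 0.0261). In vivo library 1 alone differed by -2.28 (SE 0.86), with an adjusted p of 0.15 and the assumption that a lone library varies like the vehicle ones. The call was lost, at 0.058 to 0.0973, when any library other than in vivo library 1 was left out, and at 0.0949 with in vivo libraries 2 and 3 averaged as 1 sample. The balance of Egln3 against Egln1 was -3.18, -3.35 and -3.33 in the in vivo libraries and -1.07, -1.10 and -0.38 in the vehicle libraries. The pigment-rich non-primed libraries, which had no drug, were lower still in this balance, at -4.11, -4.20 and -3.46, so for in vivo libraries 2 and 3 the drug and the pigment-cell content cannot be told apart.

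Most other members split the in vivo group. Slc2a1 had 14.63, 12.59 and 12.47 in the in vivo libraries and 14.41, 14.80 and 16.08 in the vehicle libraries, so that library 1 lay within the vehicle range and the other two below it. Hif1a had 16.14, 14.38 and 14.50 in the in vivo libraries and 15.57, 15.64 and 15.42 in the vehicle libraries. Library 1 was above every vehicle library, and the other two were below every one of them. P4ha2 had 15.19, 11.33 and 11.34 in the in vivo libraries and 14.64, 15.43 and 16.24 in the vehicle libraries, again with library 1 inside the vehicle range. Slc16a1 had 14.37, 13.05 and 13.14 in the in vivo libraries and 13.19, 13.66 and 14.01 in the vehicle libraries, with library 1 above all vehicle libraries. Over all 3 in vivo libraries the group means differed by -1.87 (SE 0.72) for Slc2a1, -0.53 (SE 0.49) for Hif1a, -2.81 (SE 1.13) for P4ha2 and -0.10 (SE 0.41) for Slc16a1, none of which passed.

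The members whose groups did not overlap were Slc2a5 above, and Egln3, Vegfa, Car9, Car12 and Aldoc below, which sets 1 and 5 members against 22.4% and 27.3% of all genes, together 6 against 49.7%. Vegfa had 13.81, 11.76 and 11.73 in the in vivo libraries and 14.57, 14.23 and 15.73 in the vehicle libraries. Car9 had 12.09, 9.18 and 9.15 in the in vivo libraries and 12.47, 12.73 and 13.92 in the vehicle libraries. Both were lower in library 1 as well as in the pigment-rich libraries, and neither passed, at -2.41 (SE 0.69, adjusted p = 0.0516) and -2.91 (SE 0.89, adjusted p = 0.061).

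Without in vivo library 1, the remaining libraries 2 and 3 differed from vehicle in 27 members, 4 higher and 23 lower, against 67.9% of all genes, 30% higher and 37.9% lower. The 4 were Slc2a5, Ldhb, Eno2 and Kdm3a. Among the lower ones, Hif1a differed by -1.10 (SE 0.10), P4ha2 by -4.10 (SE 0.43) and Car9 by -3.88 (SE 0.42). Libraries 2 and 3 were nearly alike, to each other and to non-primed library 3, and whether they are separate cultures, or carry the right label, is not known, so these SEs may not measure the spread between cultures. With libraries 2 and 3 averaged as 1 sample beside library 1, an alternative chosen after seeing the data, 0 members passed limma's test, against 4.68% of all genes, 0.928% higher and 3.75% lower. With in vivo library 1 alone, 0 members passed limma's test, against 12.3% of all genes, 3.65% higher and 8.64% lower, and the median member difference was 0.05. In a fit of all 12 libraries, 9 members passed, 1 higher and 8 lower, against 40.6% of all genes, 17.7% higher and 22.9% lower. A drug effect in libraries 2 and 3 and their pigment-cell content cannot be told apart. Of the marker lists in the full comparison, 2 of 10 fibroblast markers and 6 of 9 macrophage markers fell, no melanocyte marker passed, both neutrophil markers tested fell, and 1 muscle marker rose, while 1 endothelial and 1 keratinocyte marker fell and no Schwann cell or chondrocyte marker passed.

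Lastly, primed cells treated in vitro were compared with those treated in vivo. No member and none of the 16355 genes tested passed in limma, with a smallest adjusted p of 0.233 and 0% called, and at an unadjusted p under 0.05 there were 3111 genes and 5 members. Slc16a1 was higher in every in vitro library, at 14.91, 15.49 and 14.79, than in the in vivo libraries, at 14.37, 13.05 and 13.14, a difference of 1.54 (SE 0.41). Car12 was also higher in every in vitro library, by 2.25 (SE 0.87), and Kdm3a was lower in every one, at a difference of -0.41 (SE 0.15). Car12 had 7.29, 7.28 and 7.21 in the in vitro libraries and 7.02, 4.12 and 3.87 in the in vivo libraries. Kdm3a had 12.80, 12.64 and 12.76 in the in vitro libraries and 12.85, 13.26 and 13.31 in the in vivo libraries. For both genes in vivo library 1 lay near the in vitro libraries, and the pigment-rich libraries 2 and 3 lay further away. Slc16a1, Car12 and Kdm3a are the 3 members without overlap, against 22.3% of all genes. Without in vivo library 1, 33 members passed, 30 higher and 3 lower, against 64.6% of all genes, 35.1% higher and 29.5% lower. In vivo libraries 2 and 3, which remained in that fit, were pigment-rich and nearly alike. The SEs of that fit may therefore not measure the spread between cultures. In vivo library 1 on its own lay close to the in vitro libraries, with median differences of 0.15 to 0.22 over all genes. The in vitro libraries differed from each other by 0.16, 0.22 and 0.20, and in vivo library 1 differed from the primed vehicle libraries by 0.43, 0.46 and 0.48. Between in vivo library 1 and in vitro libraries 1 to 3, 29, 23 and 13 members lay within 0.25 log2 units. Between pairs of in vitro libraries these were 20, 16 and 16. Whether in vivo library 1 carries the right label is not known either.

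Within the groups many members were high or low in the same library. This order was not counted over all genes, so it may not be particular to the members. Among primed vehicle cells, library 3 had the highest value for 33 of 39 members and library 1 the lowest for 30. Over the 10 other hypoxia targets the mean rlog was 12.56, 12.85 and 13.90 in primed vehicle libraries 1 to 3, and over the 15 enzymes it was 14.50, 14.83 and 15.35. For non-primed cells, library 1 had the highest value for 28 members and library 3 the lowest for 35, with target means of 12.40, 12.08 and 10.75 and enzyme means of 15.49, 15.36 and 14.23. The in vitro libraries were the most alike, with target means of 12.77, 12.59 and 12.54 and enzyme means of 14.95, 14.88 and 14.78. The median range of a member within the group was 0.43 in the in vitro group, 1.32 in the in vivo group, 1.15 in primed vehicle cells and 1.29 in non-primed cells. In primed vehicle cells the widest range was that of Ndrg1, 2.67 log2 units, and in non-primed cells that of Car9, 3.07.

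Related enzymes also differed in balance across the libraries. Ldha minus Ldhb was 5.51, 7.11 and 7.44 in primed vehicle cells and 4.71, 4.66 and 4.20 in non-primed cells, with no overlap. It was 6.13, 5.72 and 5.47 in the in vitro libraries, and 5.97, 4.21 and 4.17 in the in vivo libraries. Hif1a minus Epas1 was 4.07, 3.05 and 3.30 in primed vehicle cells and 3.96, 3.21 and 2.02 in non-primed cells, which overlapped. P4ha2 minus P4ha1 was -0.28, 0.29 and 0.57 in primed vehicle cells and -1.05, -1.04 and -2.65 in non-primed cells. P4ha2 was thus the one of the pair that differed more with priming. These balances compare the same pair of genes across libraries and not the amounts of the gene products.

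Further genes of these pathways, listed by function, are described by their counts. With priming, 26 of 46 further hypoxia targets tested rose and 5 fell, with a median of 1.54, where 27.9% of all genes rose and 21.3% fell with a median of 0.06. The other lists of this comparison are to be read against the same shares. The collagen cross-linking oxidase Lox rose by 7.14 (SE 1.41), the membrane protein gene Tmem45a by 6.99 (SE 1.27) and the lipase inhibitor Angptl4 by 6.60 (SE 1.09). Of 15 further HIF regulators 3 rose and 2 fell, led by Arnt2, a partner of the alpha subunits, which rose by 3.40 (SE 0.34), while Hsp90aa1 fell by 0.96 (SE 0.20). In the pentose phosphate pathway, which draws off glucose 6-phosphate, 5 of 8 genes rose and 1 fell, with Pgd higher by 1.85 (SE 0.17), H6pd by 1.76 (SE 0.16) and Taldo1 by 1.44 (SE 0.15). Of 23 further glycolysis genes 7 rose and 3 fell, led by the glucose transporter Slc2a10 at 5.72 (SE 0.90), the hexokinase Hk3 at 5.69 (SE 0.77) and the transporter Slc16a4 at 4.39 (SE 0.51). Of 14 genes of pyruvate entry to mitochondria 4 rose and 3 fell, among them Pdk4, an inhibitor of pyruvate dehydrogenase, which rose by 5.20 (SE 0.94). Of 13 sugar-sensing and growth regulators 3 rose and 5 fell, with Arrdc4 higher by 6.63 (SE 1.04), and Prkaa2 and Txnip differing by -1.68 (SE 0.32) and -1.42 (SE 0.35). Fibroblast, macrophage and melanocyte markers moved with these lists as with the members, and their part in the counts was not tested.

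In the in vitro group against vehicle, 11 of 46 further hypoxia targets fell and 3 rose, with a median of -0.27, where 17.9% of all genes fell and 13.3% rose with a median of -0.04. The angiogenic factor Pgf fell by 3.22 (SE 0.83), the secreted glycoprotein Stc2 by 2.82 (SE 0.43) and the vasoconstrictor gene Edn1 by 2.44 (SE 0.29). Arnt2 fell by 1.51 (SE 0.23), and its relative Arnt rose by 0.43 (SE 0.11), among 3 of 15 HIF regulators that rose and 2 that fell. G6pdx, which opens the pentose phosphate pathway, rose by 0.88 (SE 0.11) as the only called gene of 8. The mitochondrial pyruvate carrier subunits Mpc2 and Mpc1 rose by 0.66 (SE 0.10) and 0.57 (SE 0.12), with Pdp1, and Pdk4 fell by 1.06 (SE 0.12), these 4 being the calls among 14 genes. Of 24 further glycolysis genes 5 rose and 7 fell, led by Hk3 at -2.19 (SE 0.62), Pgam2 at 1.94 (SE 0.53) and the transporter Slc2a6 at -1.79 (SE 0.46). Of 14 sugar-sensing genes 2 rose and 2 fell, with Txnip, an inhibitor of glucose uptake, higher by 1.13 (SE 0.28) and Trp53 at -0.70 (SE 0.08).

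In the in vivo group against the same vehicle libraries, 3 of 46 further hypoxia targets rose and 11 fell, where 10.4% of all genes rose and 15% fell. The called ones were led by Stc2 at -5.92 (SE 1.39), Igfbp3 at -4.85 (SE 1.36) and Edn1 at -4.13 (SE 0.73). Stc2 had 8.82, 4.06 and 3.92 in the in vivo libraries and 11.72, 10.70 and 12.15 in the vehicle libraries, and Igfbp3 had 11.34, 6.42 and 6.83 in the in vivo libraries and 13.91, 12.43 and 12.81 in the vehicle libraries. For both genes every in vivo library was below every vehicle library, and the pigment-rich libraries 2 and 3 were far lower than library 1. Arnt2 fell by 2.94 (SE 0.52), and of 15 HIF regulators 3 rose and 1 fell. Txnip rose by 1.97 (SE 0.26), and Myc and Trp53 fell by 1.26 (SE 0.33) and 1.13 (SE 0.11), the 3 calls among 14 sugar-sensing genes. Mpc2 rose by 0.68 (SE 0.10) and Mpc1 by 0.63 (SE 0.15), the only calls among 14 genes of pyruvate entry. Of 24 further glycolysis genes 4 rose and 4 fell, with Hk3 at -4.62 (SE 0.63), and of 8 pentose phosphate genes Pgd and Taldo1 fell, at -1.41 (SE 0.29) and -1.04 (SE 0.15).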

How the data were processed

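Polyadenylated RNA was sequenced in 12 libraries in 4 groups of 3, with groups read from the sample titles. The library kit was stranded, per the labels' protocols. The submitters' processing notes name cutadapt 1.18, STAR 2.6.1c, featureCounts of Subread 1.6.1, DESeq2 1.24.0 and the build GRCm38. No source used here gives their settings, the annotation release or the strand used in counting. The authors deposited log2 values, the regularized log of DESeq2 by the name and values of the table, which shrink differences of weak genes. No read counts are held, so depth is unknown and no count test was run. Genes with near-identical copies, such as Gapdh, Aldoa, Ldha, Pgk1, Tpi1, Pgam1 and Eno1, and overlapping genes are uncertain in level.

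Each of the 55413 identifiers had a symbol, and 109 that shared a symbol with an identifier of higher mean were left aside for it. In each comparison, limma 3.58.1 in R 4.3.3 was fitted with a variance trend to the 6 libraries compared, over genes with a mean rlog of at least 3. P-values are two-sided and Benjamini-Hochberg adjusted over those genes, and an adjusted p under 0.05 was called. The fit was also run on simulated data with known changes, in which the noise was independent and had the same spread in both groups. That simulation does not cover groups of unequal spread or libraries that are nearly alike, as these data hold. Values are given as mean, SE or library values, with n = 3 in each group. Members, pathway lists and marker lists were chosen with earlier results of these data known. Library values are given for called members, up to the 8 largest differences in a comparison, and for an uncalled member of each role, and other genes are shown with them. Of further pathway genes, up to 3 called ones with the largest difference are named, and Arnt and Mpc1 in addition in the in vitro comparison after their values were seen. Alternatives were the filter, the trend, the scaling, the replicate number as a block, a fit of all 12 libraries and leaving out libraries.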

Additional observations from a re-analysis of the deposited data

How the results depend on the processing

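Called members kept their direction under every alternative run. In the comparison of primed with non-primed vehicle cells, quantile normalization called 55.9% of all genes, 23.6% higher and 32.3% lower. Of the members it called 16, 8 higher and 8 lower. Among the lower ones were Aldoa, Gapdh, Pgk1, Eno1 and Pkm, the last at -0.69 (SE 0.21, adjusted p = 0.0302), against 0.20, not called, in the values as deposited. Leaving out a library gave 10 to 19 members, against 36.6% to 56.3% of all genes. Pfkfb3 and P4ha1 missed the threshold in the fit of all 12 libraries, at adjusted p of 0.0656 and 0.0954. For in vivo treatment, quantile normalization called 4 members, the fit of all 12 libraries 9, the replicate block 0, in vivo library 1 alone 0, and averaging libraries 2 and 3 as 1 sample, which was chosen after seeing the data, 0. Quantile normalization called 31.2% of all genes in that comparison. Leaving out a library gave 0 to 27 members. Over all genes, against 4220, these were 6771 in the fit of 12, 645 with the block, 2085 with library 1 alone, 787 averaged and 643 to 11347 leaving out a library. For in vitro treatment, no filter and the fit of all 12 called 1 member each, against 11% and 6.46% of all genes. Quantile normalization called 5 members, against 34%, the replicate block 5, against 23.9%, and leaving out a library 1 to 8. Over all genes, against 5228, the fit of 12 called 1085 and leaving out a library 2770 to 4922. Hif1a missed the threshold with no filter and with no variance trend, at adjusted p of 0.0738 and 0.0501, and Egln3 with no filter, at 0.068. In vitro against in vivo gave 0 to 33 members and 0 to 10540 genes leaving out a library, the upper values without in vivo library 1. The cause of these shifts was not tested.

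Scaling moved the split of calls over all genes. With priming it was 4624 higher and 3528 lower as deposited and 3905 and 5357 after quantile normalization, which moved the median of all genes to -0.23, and median-centring moved it to -0.08. In vivo it was 1728 and 2492 as deposited, 2617 and 2123 median-centred and 3083 and 2108 quantile normalized, with medians of 0.12 and 0.18. In vitro it was 2228 and 3000 as deposited, 3195 and 2453 median-centred and 3232 and 2471 quantile normalized, with medians of 0.06 and 0.08.

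Same-numbered libraries did not deviate together, with correlations of deviations of 0.08, -0.14 and -0.10 with priming, -0.05, 0.11 and -0.15 in vivo and -0.27, 0.16 and -0.02 in vitro, so the numbers were not taken as pairs. Between differently numbered libraries, in vitro library 3 had 0.41 with primed vehicle library 1 and -0.44 with primed vehicle library 2. In vitro library 1 had 0.37 with primed vehicle library 2 and -0.07 with primed vehicle library 3. In vitro library 2 had 0.11 with primed vehicle library 3 and -0.24 with primed vehicle library 1. Whether cultures were paired under other numbers was not tested. Since no counts are held, the depth behind the values is unknown.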
